A study of Homo sapiens with 12 samples.

Results

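The G1 cyclins, their kinases and the inhibitors of these kinases decide whether a cell that has divided enters another round of DNA replication. Their messages were followed in OCI-Ly7, an established human line of diffuse large B-cell lymphoma, a cancer of mature B cells. The 10 genes were CCND1, CCND2, CCND3, CDK4, CDK6, CCNE1, CCNE2, CDKN1A, CDKN1B and CDKN2C. They were taken by name, with earlier results of these data known. Every probe set whose annotation gave one of these symbols alone was taken. This found 22 probe sets for 9 of the 10 genes, among 19775 genes with such a probe set and 54613 probe sets tested in all. CDKN2C was not analysed here, because no probe set carried its symbol alone in the annotation used.

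The groups were vehicle, ibrutinib at 1 μM, ibrutinib at 10 μM and PLS-123 at 1 μM, each kept for 24 hours and each with 3 samples, 4 groups in all. Ibrutinib and PLS-123 both bind covalently to Btk, the kinase that carries the signal of the B-cell receptor (BCR) into the cell. PLS-123 was designed to block the activation of Btk as well as its catalytic activity, and the arrays were run to look for actions of PLS-123 on gene expression beyond those of ibrutinib. Biotin-labelled cRNA of each sample was read on its own Affymetrix U133 Plus 2.0 array, 12 arrays in all. A single cell line was used, and nothing in the labels tells whether samples of a group came from different cultures, so the p values measure the spread between these samples, which may be technical.

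In G1, growth signals raise the D-type cyclins (CCND1, CCND2, CCND3), which switch on the kinases CDK4 and CDK6. These kinases phosphorylate RB1, which then lets go of the E2F transcription factors, and E2F in turn switches on the E-type cyclins (CCNE1, CCNE2), the partners of CDK2. CDKN1A (p21) and CDKN1B (p27) bind cyclin-kinase complexes and hold CDK2 back, and the INK4 family binds CDK4 and CDK6. In B cells, BCR signals are known to raise D-type cyclins, and CDKN1B is a known target of the FOXO factors that AKT keeps out of the nucleus.

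With PLS-123 and with 10 μM ibrutinib, the cells held less CCND3, CDK6 and CCNE1 message and more CDKN1B message than with vehicle. CCND3 was 2.29-fold lower with PLS-123 and 1.72-fold lower with 10 μM ibrutinib, and CDKN1B was 3.04-fold and 2.20-fold higher. CDK4, CDKN1A and the brightest CCNE2 probe set passed the test in none of the 6 comparisons, and CCND1 and CCND2 lay in the range of dim probe sets. With 1 μM ibrutinib none of the 9 genes passed. On arrays of whole cultures, fewer cells with a message and less of it in each cell cannot be told apart.

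Values are log2 intensities, so that a step of 1 is a doubling, and a gene is given by its brightest probe set, as averaged over all 12 arrays. A gene passed, or was called, when its adjusted p was under 0.05 in limma, fitted to all 12 arrays with Benjamini-Hochberg adjustment over all 54613 probe sets. Errors are SD over 3 arrays unless an SE or a 95% confidence interval (CI) is named. A probe set is called dim where its mean lay under 3.87, the median of all probe sets. The level of one probe set cannot be set against that of another, since probes differ in brightness.

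Correlations between arrays of a group were at least 0.995. All 8 B-cell markers measured, among them MS4A1 and PAX5, lay above the median. Of the T and NK cell markers 6 of 8 were dim, of the myeloid markers 4 of 6 and of the stromal and epithelial markers 5 of 8. The summed intensity of the B-cell markers was 15720 to 16409 with vehicle, 15865 to 16512 with 1 μM ibrutinib and 12424 to 12626 and 11998 to 12591 in the groups of 10 μM ibrutinib and PLS-123. Of these 8 markers PLS-123 lowered 5, with differences from vehicle of -2.14 for CD22, -1.45 for BCL6 and -0.62 for MS4A1, and raised 2, MME by 1.69 and CD79B by 0.31. With 10 μM ibrutinib 3 fell and 1 rose. Of all genes 12.8% fell and 7.54% rose with PLS-123, and 5.82% and 6.71% with 10 μM ibrutinib. The log2 difference between the 3' and 5' control probe sets of ACTB, which grows as RNA is shortened, stood above vehicle by 0.29 in the PLS-123 group and by 0.10 in that of 10 μM ibrutinib (p = 0.1 for both in a two-sided exact permutation test, which cannot go lower at 3 arrays against 3). In 3 groups one array stood above the other two: array C of PLS-123 read 3.17 against 2.83 and 2.80, array C of 10 μM ibrutinib 2.83 against 2.69 and 2.70, and array A of 1 μM ibrutinib 2.87 against 2.55 and 2.58. Without its array C the PLS-123 difference from vehicle was 0.18, and that of 10 μM ibrutinib 0.06. The same measure for GAPDH stood above vehicle by 0.14 with PLS-123 and by 0.08 with 10 μM ibrutinib (p = 0.1 for both, same permutation test). Its arrays read 0.27 to 0.35 with vehicle and 0.24 to 0.31 with 1 μM ibrutinib. They read 0.38 to 0.40 at the 10 μM dose and 0.44 to 0.47 with PLS-123, each apart from all other groups. The GAPDH measure was not used in a fit. The part of the B-cell marker levels in the results below was not tested, and that of RNA quality was not tested beyond a fit with the ACTB difference as a covariate, whose values are given beside them.

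Of the D-type cyclins, CCND3 was the one measured well above the dim range. It read 10.85, 10.81 and 10.79 in the vehicle arrays, 10.63, 10.88 and 10.83 with 1 μM ibrutinib, 10.05, 10.01 and 10.05 at the 10 μM dose, and 9.64, 9.64 and 9.59 with PLS-123. The vehicle and 1 μM ibrutinib arrays overlapped, the 10 μM ibrutinib arrays all lay below them, and the PLS-123 arrays lay lowest. The group means were 10.82 ± 0.03 with vehicle, 10.78 ± 0.13 with 1 μM ibrutinib, 10.04 ± 0.02 at the 10 μM dose and 9.62 ± 0.03 with PLS-123 (SD, n = 3 arrays each). Against vehicle, CCND3 changed by -1.20 on the log2 scale under PLS-123 (SE 0.08, limma adjusted p = 2.4e-07). With 10 μM ibrutinib it fell by 0.78 (adjusted p = 1.7e-05), and with 1 μM ibrutinib the difference was -0.04 (95% CI -0.22 to 0.13, adjusted p = 0.98). With the ACTB covariate the differences were -1.10 and -0.75 (adjusted p = 2.9e-05 and 4.9e-05).

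At the matched dose of 1 μM, CCND3 was 2.23-fold lower with PLS-123 than with ibrutinib (limma adjusted p = 4.6e-07). The neighbours in its order of levels were 10 μM ibrutinib and 1 μM PLS-123, doses that differ by the labels, and here the difference of -0.41 did not pass (95% CI -0.59 to -0.24, adjusted p = 0.0595) although the arrays did not overlap. The second CCND3 probe set, 1562028_at, was dim, with differences from vehicle between -0.20 and -0.08 that did not pass, and its correlation with the brightest over the 12 arrays was 0.29.

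CCND1, the D-type cyclin of mantle cell lymphoma, was dim on both of its probe sets. The brighter read 2.92, 2.96 and 3.04 with vehicle, 2.83, 2.68 and 3.08 with 1 μM ibrutinib, 2.57, 2.79 and 2.83 at the 10 μM dose, and 2.68, 3.01 and 2.72 with PLS-123. The 10 μM ibrutinib arrays lay below the vehicle arrays, a difference of -0.25 that did not pass (limma adjusted p = 0.26). CCND2, which BCR signals raise in normal B cells, was dim on all 4 of its probe sets. Its brightest read 3.23, 3.42 and 3.24 with vehicle, 3.13, 3.46 and 3.05 with 1 μM ibrutinib, 3.30, 3.10 and 3.23 at the 10 μM dose, and 3.40, 3.22 and 3.01 with PLS-123, and all groups overlapped. Another CCND2 probe set, 200952_s_at, read above vehicle on all arrays of both ibrutinib doses, by 0.28 and 0.27, and did not pass (adjusted p = 0.92 and 0.13).

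**Figure D1:**
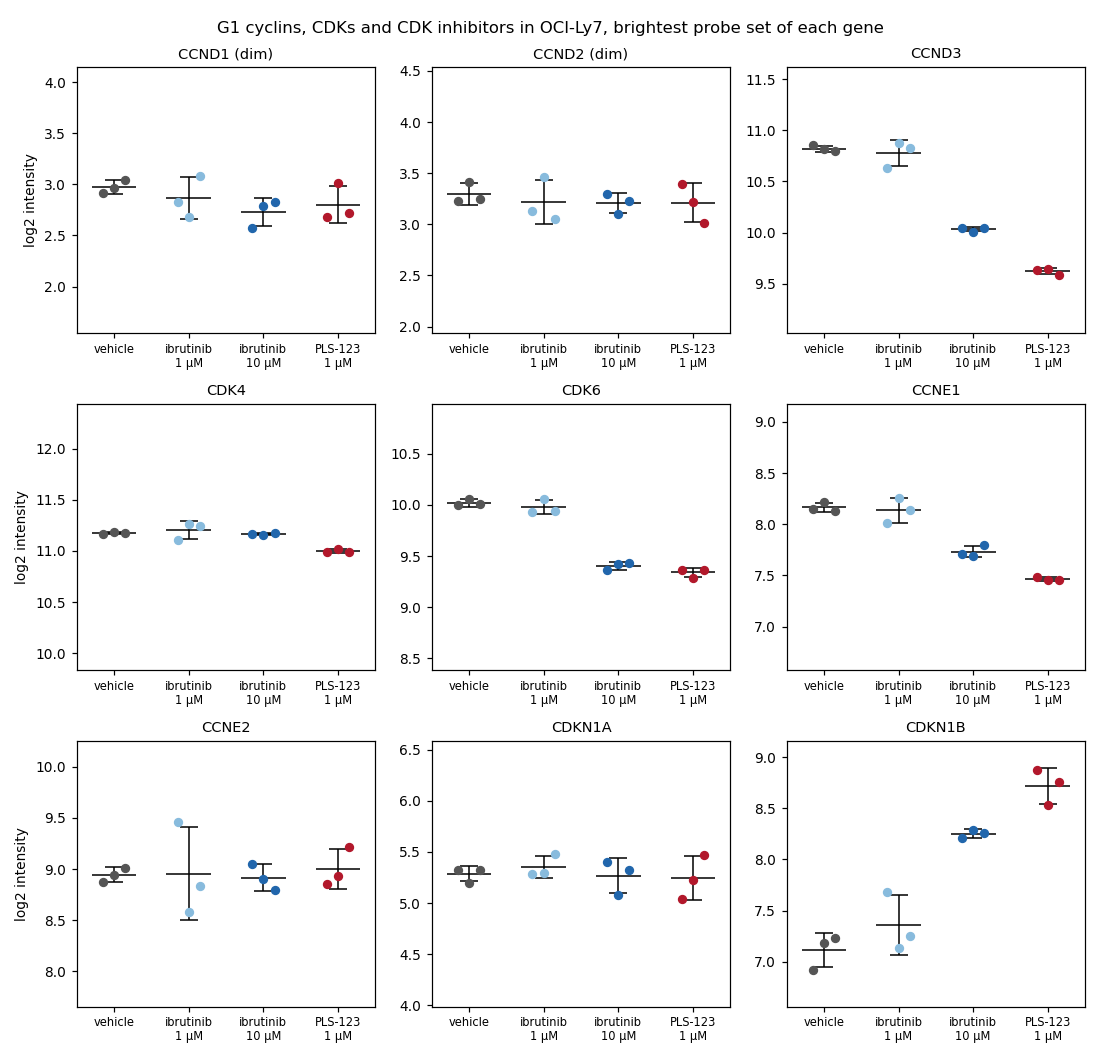
Log2 intensity of the brightest probe set of each of the 9 measured genes on the 12 arrays (points, 3 per group), with the group mean (long bar) and SD (capped bar); every panel spans the same height on the log2 scale, and dim marks probe sets under 3.87. CCND3, CDK6 and CCNE1 step down and CDKN1B steps up with 10 μM ibrutinib and PLS-123, while CDK4 spans 0.20 between its highest and lowest group means.

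CDK6, the D-cyclin kinase that is prominent in blood cells, was read by 7 probe sets. The brightest, 224847_at, read 9.99, 10.06 and 10.00 with vehicle, 9.93, 10.06 and 9.94 with 1 μM ibrutinib, 9.36, 9.42 and 9.43 at the 10 μM dose, and 9.36, 9.29 and 9.37 with PLS-123. The arrays of 10 μM ibrutinib and PLS-123 overlapped with each other and lay below all arrays of the remaining groups. CDK6 fell by 0.68 under PLS-123 (SE 0.07, limma adjusted p = 2.5e-05) and by 0.62 at the higher ibrutinib dose (adjusted p = 7.4e-05), which are 1.60-fold and 1.53-fold lower levels. The difference with 1 μM ibrutinib was -0.04 (95% CI -0.20 to 0.12, adjusted p = 0.97). At 1 μM, PLS-123 gave 1.56-fold less than ibrutinib (adjusted p = 5.6e-05). Between PLS-123 and 10 μM ibrutinib, at unlike doses, the difference was -0.07 (95% CI -0.23 to 0.09, adjusted p = 0.72). With the ACTB covariate the differences from vehicle were -0.67 and -0.61 (adjusted p = 0.0013 and 0.00025).

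The probe sets of CDK6 split by brightness. The 4 brightest, 224847_at, 224851_at, 224848_at and 243000_at, all fell with both treatments, with differences of -0.97 to -0.68 for PLS-123 and of -0.81 to -0.56 for 10 μM ibrutinib. Over the 12 arrays the other 3 of these had correlations of 0.96, 0.97 and 0.93 with 224847_at. The remaining 3, 231198_at, 207143_at and 235287_at, had means near or under the dim line, differences from vehicle between -0.34 and 0.02 that did not pass, and correlations of 0.58, 0.56 and 0.37. Probe sets of 1 gene were read on the same arrays and are not independent measurements. The transcript parts they read were not analysed here.

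CDK4, the partner kinase of CDK6, had 1 probe set. It read 11.16, 11.19 and 11.18 with vehicle, 11.10, 11.26 and 11.25 with 1 μM ibrutinib, 11.16, 11.16 and 11.18 at the 10 μM dose, and 10.99, 11.02 and 10.99 with PLS-123. The PLS-123 arrays all lay below the other 9. The difference from vehicle was -0.18 (95% CI -0.34 to -0.02, limma adjusted p = 0.12) and that from 1 μM ibrutinib was -0.20 (adjusted p = 0.091), so neither passed. Under 5 of the other ways of testing the difference from vehicle passed, with adjusted p from 0.0068 to 0.043, and with the ACTB covariate it was -0.12 (adjusted p = 0.59). The difference from 1 μM ibrutinib passed under 6, with adjusted p from 0.0029 to 0.039, one of them without array A of that group, and was -0.15 with the ACTB covariate (adjusted p = 0.47). With 10 μM ibrutinib the difference from vehicle was -0.01 (95% CI -0.17 to 0.15).

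CCNE1, the E-type cyclin that drives CDK2 at the entry into S phase, read 8.15, 8.22 and 8.13 with vehicle, 8.01, 8.26 and 8.14 with 1 μM ibrutinib, 7.71, 7.69 and 7.80 at the 10 μM dose, and 7.48, 7.45 and 7.46 with PLS-123. The order of the groups was that of CCND3, with vehicle and 1 μM ibrutinib overlapping and PLS-123 lowest. CCNE1 fell by 0.70 under PLS-123 (SE 0.08, limma adjusted p = 4.5e-05), a 1.62-fold lower level, and by 0.43 at the higher ibrutinib dose (adjusted p = 0.0030), a 1.35-fold lower level. With 1 μM ibrutinib the difference was -0.03 (95% CI -0.20 to 0.15, adjusted p = 0.99). At 1 μM, PLS-123 gave 1.60-fold less CCNE1 than ibrutinib (adjusted p = 7.9e-05). The difference between PLS-123 and 10 μM ibrutinib was -0.27 (95% CI -0.44 to -0.09) and did not pass (adjusted p = 0.16). The second CCNE1 probe set, 242105_at, was dim and passed in no comparison, and the mean of both fell by 0.23 with 10 μM ibrutinib, which did not pass (adjusted p = 0.069). With the ACTB covariate the differences of the brightest were -0.63 and -0.41 (adjusted p = 0.0032 and 0.0075).

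The 250 bases before the RefSeq start of CCNE1 (chr19:29811741-29811990, GRCh38.p14, + strand) are shown because this gene fell and has a single annotated start. Capitals mark the GC box GGGCGG, the binding letters of the SP/KLF factors, searched on both strands, which stands 7 times here, between 61 and 222 bases before the start.
CCNE1: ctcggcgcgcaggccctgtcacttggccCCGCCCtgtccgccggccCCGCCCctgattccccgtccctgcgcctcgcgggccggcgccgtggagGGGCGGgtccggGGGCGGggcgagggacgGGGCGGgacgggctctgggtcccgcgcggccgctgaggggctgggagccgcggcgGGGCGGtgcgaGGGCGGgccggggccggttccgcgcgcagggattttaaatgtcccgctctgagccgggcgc
The GC box was held by 42.6% of the 35116 promoter windows of this length in the RefSeq table, so a match describes the sequence and does not mark a used site.

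CCNE2, the second E-type cyclin, was read differently by its 2 probe sets. The brightest, 205034_at, read 8.87, 8.95 and 9.01 with vehicle, 9.46, 8.58 and 8.83 with 1 μM ibrutinib, 9.05, 8.90 and 8.79 at the 10 μM dose, and 8.86, 8.93 and 9.22 with PLS-123. All groups overlapped, array A of 1 μM ibrutinib stood highest, and the difference with PLS-123 was 0.06 (95% CI -0.32 to 0.43, limma adjusted p = 0.88). The other, 211814_s_at, read 6.79, 6.70 and 6.87 with vehicle, 6.75, 6.69 and 6.59 with 1 μM ibrutinib, 6.07, 6.46 and 5.93 at the 10 μM dose, and 5.84, 5.79 and 5.60 with PLS-123. Here both treatments lay below vehicle on every array. It changed by -1.04 under PLS-123 (SE 0.12, adjusted p = 4.8e-05) and by -0.63 under 10 μM ibrutinib (adjusted p = 0.0036), and with ACTB as a covariate by -0.95 and -0.60 (adjusted p = 0.0039 and 0.011). Under the methods' t-test the change with 10 μM ibrutinib did not pass (adjusted p = 0.14). Over the 12 arrays the 2 probe sets had a correlation of -0.05. Which parts of the transcript each reads was not analysed here, and no single direction is given for the gene.

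**Figure D2:**
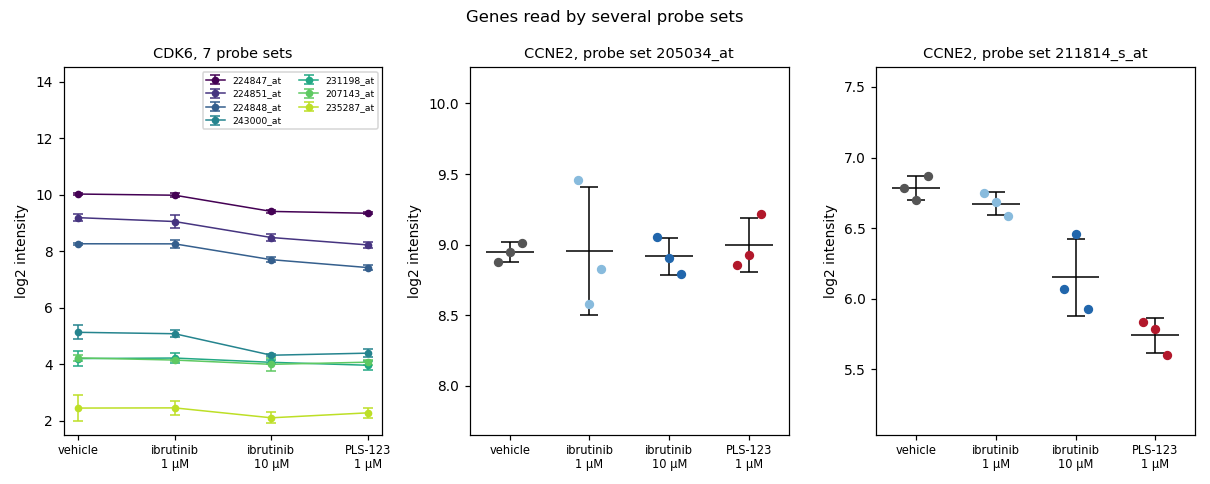
Left, group means with SD (capped bars, n = 3 arrays) of the 7 CDK6 probe sets on the log2 intensity axis; middle and right, the 12 arrays (points), group means (long bars) and SD (capped bars) of the 2 CCNE2 probe sets, drawn to one height of axis. The 4 brightest CDK6 probe sets step down together, and of the CCNE2 probe sets 211814_s_at steps down while 205034_at does not.

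CDKN1B, which encodes p27, was the gene with the widest range of group means among the 9, at 1.60. It read 6.92, 7.19 and 7.23 with vehicle, 7.69, 7.14 and 7.25 with 1 μM ibrutinib, 8.21, 8.29 and 8.26 at the 10 μM dose, and 8.87, 8.53 and 8.75 with PLS-123. All arrays of 10 μM ibrutinib lay above those of vehicle and 1 μM ibrutinib, and all PLS-123 arrays lay above those of 10 μM ibrutinib. The means were 7.11 ± 0.17 with vehicle, 7.36 ± 0.29 with 1 μM ibrutinib, 8.25 ± 0.04 at the 10 μM dose and 8.72 ± 0.17 with PLS-123 (SD, n = 3 arrays each). PLS-123 raised CDKN1B by 1.60 (SE 0.14, limma adjusted p = 2.5e-06) and 10 μM ibrutinib by 1.14 (adjusted p = 7.3e-05). With the ACTB covariate the rises were 1.40 and 1.07 (adjusted p = 0.00029 and 0.00022).

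With 1 μM ibrutinib the difference of CDKN1B from vehicle was 0.25 (95% CI -0.05 to 0.54, adjusted p = 0.92). It came mostly from array A, the array with the highest ACTB difference of its group, and was 0.08 without that array. At the matched dose of 1 μM, PLS-123 gave 2.56-fold more CDKN1B than ibrutinib (limma adjusted p = 1.5e-05), and 10 μM ibrutinib gave 1.86-fold more than 1 μM (adjusted p = 0.00075). Under the methods' t-test these comparisons with 1 μM ibrutinib did not pass after adjustment (adjusted p = 0.057 and 0.11). Between PLS-123 and 10 μM ibrutinib, at unlike doses, the difference was 0.47 (95% CI 0.17 to 0.76) and did not pass (adjusted p = 0.15).

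CDKN1A, which encodes p21, had 1 probe set. It read 5.33, 5.20 and 5.33 with vehicle, 5.28, 5.29 and 5.47 with 1 μM ibrutinib, 5.40, 5.08 and 5.33 at the 10 μM dose, and 5.04, 5.23 and 5.47 with PLS-123. All 4 groups overlapped. The difference from vehicle was -0.04 with PLS-123 (95% CI -0.29 to 0.21, limma adjusted p = 0.87), -0.02 with 10 μM ibrutinib and 0.07 with 1 μM ibrutinib. The intervals of CDKN1A and CDKN1B with PLS-123 do not meet, although a test between the genes was not made.

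The windows of both inhibitors are shown side by side because 1 rose and the other did not pass. They cover the 250 bases before the start on the + strand of GRCh38.p14, chr12:12717118-12717367 for CDKN1B and chr6:36678464-36678713 for CDKN1A. Capitals mark the GC box GGGCGG and the CCAAT box CCAAT, on either strand.
CDKN1B: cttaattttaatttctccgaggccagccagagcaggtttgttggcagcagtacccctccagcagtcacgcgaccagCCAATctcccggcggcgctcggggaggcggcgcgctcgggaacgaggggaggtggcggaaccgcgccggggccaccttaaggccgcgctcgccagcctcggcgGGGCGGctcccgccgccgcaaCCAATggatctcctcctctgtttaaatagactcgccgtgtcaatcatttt
CDKN1A: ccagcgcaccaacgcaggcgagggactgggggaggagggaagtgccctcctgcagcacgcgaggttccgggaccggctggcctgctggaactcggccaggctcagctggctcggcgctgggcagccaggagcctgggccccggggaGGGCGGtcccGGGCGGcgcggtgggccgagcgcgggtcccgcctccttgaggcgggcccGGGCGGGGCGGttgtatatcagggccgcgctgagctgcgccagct
CDKN1B held 1 GC box, 71 bases before the start, and CCAAT boxes at 50 and 174 bases. CDKN1A held 4 GC boxes, at 40, 45, 94 and 104 bases, of which the nearest to the start overlap, and no CCAAT box, a motif that 32.0% of all windows held. The FOXO letters GTAAACA, found in 2.98% of all windows, stood in none of the 12 windows available for 7 of the 10 genes, which says only that these letters are not in these bases. The CDK4 window held 3 GC boxes and 3 E-boxes CACGTG, the letters of MYC and its partners, which 6.34% of all windows held. CCND3 has 3 annotated starts and CDK6 has 2, and the arrays do not tell which were used.

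**Figure D3:**
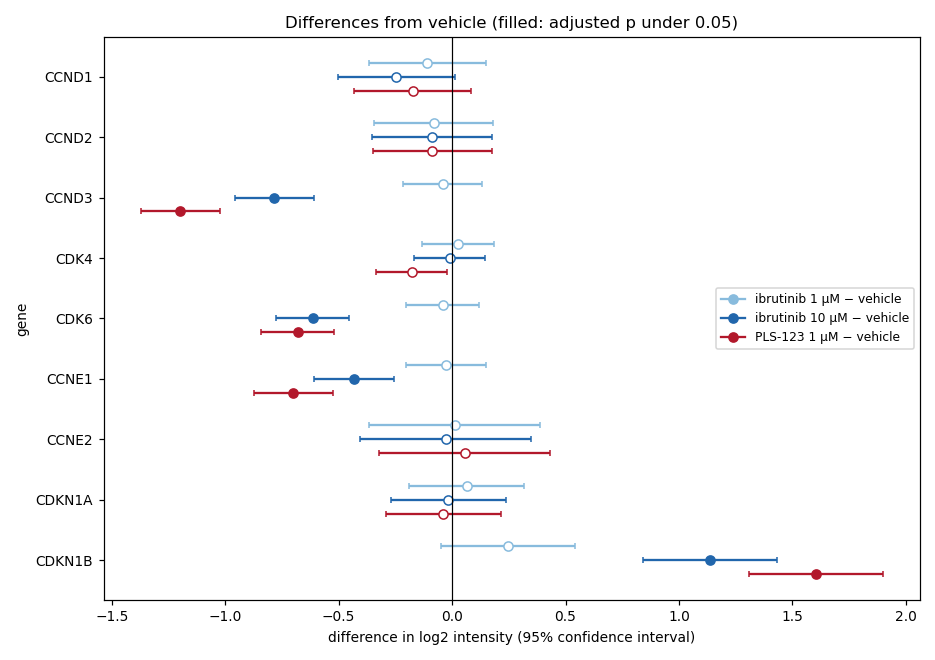
Difference in log2 intensity from vehicle for the 9 measured genes (points) with 95% confidence intervals (bars) for 1 μM ibrutinib, 10 μM ibrutinib and 1 μM PLS-123; filled points passed at an adjusted p under 0.05 in limma. CCND3, CDK6 and CCNE1 are filled on the left and CDKN1B on the right for 10 μM ibrutinib and PLS-123, and every interval of 1 μM ibrutinib crosses 0.

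Counted over the 9 genes, PLS-123 lowered 3 and raised 1 against vehicle, where 12.8% of all 19775 genes fell and 7.54% rose. With 10 μM ibrutinib the same 4 genes passed, 3 lower and 1 higher, beside 5.82% and 6.71% of all genes. With 1 μM ibrutinib 0 genes passed in limma, in either direction, beside 0% and 0% of all genes, and 0 of the 9 had an unadjusted p under 0.05 by limma on all arrays, by limma on the 2 groups alone or by the methods' t-test. With 1 probe set per gene, limma on all arrays gave such a p here for 1153 of all 19775 genes. The median difference of the 9 genes was -0.17 with PLS-123, -0.09 with 10 μM ibrutinib and -0.03 with 1 μM ibrutinib, beside -0.04, -0.02 and -0.01 over all genes. These comparisons share the vehicle arrays and are not independent of each other. Because the genes were chosen with earlier results of these data known, the shares over all genes stand beside the counts as a description. The shares also take in dim genes.

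Between treatments, PLS-123 against ibrutinib at 1 μM gave 3 genes lower and 1 higher, beside 10.1% and 5.78% of all genes. The comparison of 10 μM with 1 μM ibrutinib also gave 3 lower and 1 higher, beside 4.46% and 5.27%. PLS-123 against 10 μM ibrutinib gave 0 lower and 0 higher in limma, beside 0.142% and 0.0708% of all genes. In this last comparison, whose doses differ, 4 of the 9 had an unadjusted p under 0.05 in limma on all arrays and by the methods' t-test, and 3 by limma on the 2 groups alone. These 4 were CCND3, CDK4 and CCNE1, at -0.41, -0.17 and -0.27, and CDKN1B, at 0.47, and in each the PLS-123 and 10 μM ibrutinib arrays did not overlap. With 1 probe set per gene, limma on all arrays gave an unadjusted p under 0.05 for 3716 of all 19775 genes. Of all 54613 probe sets it was 8333, with 7337 by the methods' t-test and 8240 by limma on the 2 groups alone. The share of all genes whose arrays did not overlap was not computed. By its brightest probe set CDK6 had the smallest difference of the 4 genes that passed against vehicle, at -0.07. Its probe sets 224851_at and 224848_at differed by -0.26 and -0.28 and did not pass (limma adjusted p = 0.33 and 0.18). In both, the PLS-123 arrays lay below those of 10 μM ibrutinib, while in the remaining CDK6 probe sets the arrays overlapped.

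Over the 12 arrays CCND3 had correlations of 0.97 with CDK6, 0.99 with CCNE1 and -0.98 with CDKN1B, as a description over arrays that share their treatments. Among 12033 other genes that were not dim, those most like CCND3 were NGLY1, an enzyme that removes sugar chains from misfolded proteins (r = 0.995), CHAC1, which degrades glutathione and is a target of ATF4 (r = 0.993), and the nuclear protein gene AKIRIN2 (r = 0.993). CHAC1 differed from vehicle by -1.52 under 10 μM ibrutinib and by -2.42 under PLS-123. Those most like CDKN1B were KLRC4, a receptor gene of the NK cell complex (r = 0.990), the nucleotidase gene NT5C2 (r = 0.989) and ANKRD44 (r = 0.986). KLRC4 differed from vehicle by 1.79 and 2.52, in the same order. For CCNE1 they were OTUD6B-AS1, the lysosomal sialidase gene NEU1 and the amino acid transporter gene SLC7A7 (r = 0.992 each). For CDK6 they were CD22, an inhibitory co-receptor of the BCR (r = 0.996), the claudin gene CLDN23 (r = 0.995) and IRAG2 (r = 0.995). CD22 differed from vehicle by -1.87 and -2.14, again in this order. Such likeness was common, with 459 genes at r of 0.9 or more for CDKN1B, 1136 for CCND3, 1222 for CCNE1 and 976 for CDK6.

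Around these genes, 82 of 85 listed genes of the G1/S pathway were measured, and the others were not analysed here. With 1 μM ibrutinib 0 of the 82 passed in limma. Over all 19775 genes 12.8% fell and 7.54% rose with PLS-123, and 5.82% and 6.71% with 10 μM ibrutinib. The lists were not tested as sets against these shares. The ACTB covariate, whose counts are given for each list, lowered the calls for PLS-123 against vehicle over all 54613 probe sets as well, from 5664 to 1928 lower and from 3476 to 1552 higher. Of the 5 other CDK inhibitors, 1 fell and 1 rose with PLS-123. CDKN2D, an INK4 inhibitor of CDK4 and CDK6, fell by 0.66 (adjusted p = 0.0046), and CDKN1C (p57), dim with a mean of 3.22, rose by 0.59 (adjusted p = 0.017). With 10 μM ibrutinib CDKN2D fell by 0.68, CDKN1C rose by 0.60 and CDKN3, a phosphatase that acts on CDK2, fell by 0.42 (adjusted p = 0.0052, 0.022 and 0.0030). None of the 5 passed with PLS-123 once ACTB was a covariate. With dim probe sets left out 0 rose with either treatment in limma, and 2 fell with PLS-123.

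Of the 13 pocket proteins, E2F and DP factors, PLS-123 lowered 4 and raised 2, beside 12.8% and 7.54% of all genes. The higher ibrutinib dose, 10 μM, lowered 2 and raised 1, beside 5.82% and 6.71%. The activating factors E2F1 and E2F2 fell by 0.49 and 0.69 under PLS-123 (limma adjusted p = 0.0021 and 0.00013) and by 0.40 and 0.41 with 10 μM ibrutinib. TFDP2, a partner that E2F needs to bind DNA, fell by 0.48 with PLS-123 (adjusted p = 0.0011). E2F7, a repressor of the family, rose by 0.79 under PLS-123 and by 0.84 under the higher ibrutinib dose (adjusted p = 5.0e-06 and 3.2e-06). PLS-123 lowered 2 and raised 1 when ACTB was a covariate.

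Of the 19 measured G1/S genes that E2F switches on, 15 did not pass with PLS-123, 3 fell and 1 rose. Over all genes 12.8% fell and 7.54% rose. CDC25A, the phosphatase that activates CDK2, fell by 0.55 (limma adjusted p = 0.00040), TK1, a thymidine kinase, by 0.38 and CDC45, a part of the replicative helicase, by 0.32. UHRF1, which maintains DNA methylation, rose by 0.32 (adjusted p = 0.019). With 10 μM ibrutinib 2 fell, CDC25A by 0.30 and TK1 by 0.39, and 0 rose, beside 5.82% and 6.71% of all genes. The median of the list was -0.02 with PLS-123 and -0.04 with 10 μM ibrutinib, beside -0.04 and -0.02 over all genes. PLS-123 lowered 1 and raised 0 when ACTB was a covariate, and 10 μM ibrutinib lowered 1. With dim probe sets left out PLS-123 raised 2 and 10 μM ibrutinib 1.

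Of the 17 genes of turnover and activation of G1 kinases, PLS-123 lowered 5 and raised 1, beside 12.8% and 7.54% of all genes. The higher ibrutinib dose, 10 μM, lowered 1 and raised 1, beside 5.82% and 6.71%. CDC37, the chaperone partner that loads CDK4 and CDK6, fell by 0.47 under PLS-123 and by 0.30 under the higher ibrutinib dose (limma adjusted p = 0.0014 and 0.037). FBXW7, which marks cyclin E for degradation, fell by 0.35 and CUL4A, a ubiquitin ligase scaffold, by 0.37 with PLS-123 (adjusted p = 0.016 and 0.010). CDC25B, a phosphatase of mitotic entry, rose by 0.65 and 0.58 with PLS-123 and 10 μM ibrutinib (adjusted p = 0.00018 and 0.00063). When ACTB was a covariate, 0 of the 17 fell with either treatment in limma. After quantile normalization PLS-123 lowered 2 and raised 2, and with dim probe sets left out 2 rose with PLS-123 while 10 μM ibrutinib lowered 2 and raised 2.

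Of the 13 other cyclins and CDKs measured, PLS-123 lowered 4 and raised 1, beside 12.8% and 7.54% of all genes. The higher ibrutinib dose, 10 μM, lowered 1 and raised 1, beside 5.82% and 6.71%. CDK14, a kinase of the PFTAIRE family, fell by 0.58 and 0.64 with PLS-123 and 10 μM ibrutinib (limma adjusted p = 7.4e-05 and 3.6e-05), CCNB1, the mitotic cyclin, fell by 0.35 and CCNF by 0.30 with PLS-123, and CDK9, a kinase of transcription elongation, rose by 0.36 and 0.42 with these treatments. When ACTB was a covariate, PLS-123 lowered 1 of the 13, and it raised 3 after quantile normalization and 2 with dim probe sets left out. Among the markers of proliferation, MKI67 fell by 0.52 with PLS-123 while TOP2A and BUB1 rose by 0.51 and 0.79, and PCNA, at 0.27, did not pass (adjusted p = 0.0020, 0.0029, 9.9e-05 and 0.098).

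Of the 15 measured transcription factors known to act on G1 genes, PLS-123 lowered 3 and raised 2, beside 12.8% and 7.54% of all genes. The higher ibrutinib dose, 10 μM, lowered 1 and raised 3, beside 5.82% and 6.71%. BCL6, the germinal centre repressor, fell by 1.45 and 1.33 with PLS-123 and 10 μM ibrutinib (limma adjusted p = 2.2e-08 and 5.6e-08). FOXO1, an activator of CDKN1B, fell by 0.41 with PLS-123 (adjusted p = 0.0036), a message level that says nothing of where the protein lies in the cell. FOXO3 and FOXO4, named after their values were seen, were at 0.21 and -0.10 and did not pass (limma adjusted p = 0.10 and 0.60). With 10 μM ibrutinib FOXO1 was at -0.09 and did not pass (adjusted p = 0.61). KLF2, a factor of lymphocyte quiescence whose mean of 3.85 was just dim, rose by 0.69 and 0.42 with PLS-123 and 10 μM ibrutinib, and STAT5B by 0.41 and 0.51. When ACTB was a covariate, PLS-123 lowered 1 of the 15 and 10 μM ibrutinib raised 1, and after quantile normalization PLS-123 raised 4. The remaining genes counted with PLS-123, chosen for naming after their values were seen, were RB1, the pocket protein that CDK4 and CDK6 phosphorylate, which rose by 0.62, and E2F5, CCNH, MNAT1, CDK5 and RELA, which fell by 0.43, 0.31, 0.28, 0.31 and 0.32. KLF6, which rose by 0.32, was the other factor counted with 10 μM ibrutinib.

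**Figure D4:**
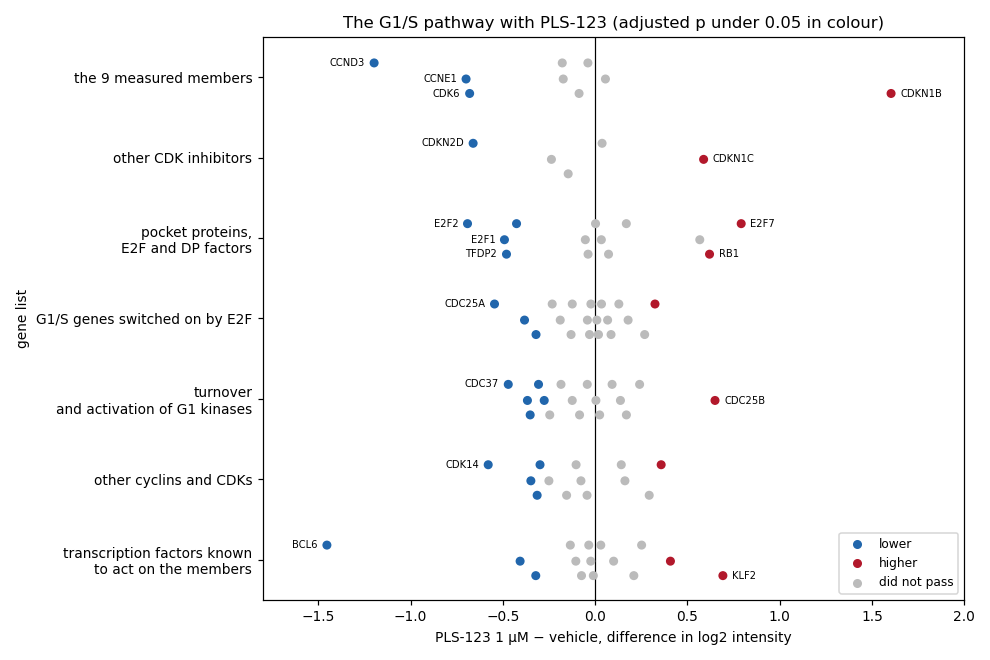
Difference in log2 intensity between 1 μM PLS-123 and vehicle (horizontal axis) for the 9 measured genes and 6 lists of the G1/S pathway (rows, spread by height for view); each point is 1 gene, blue where it was lower and red where it was higher at an adjusted p under 0.05 in limma, grey where it did not pass. CDKN1B lies farthest right of all genes shown, at 1.60, and BCL6 and CCND3 lie farthest left, at -1.45 and -1.20.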

How the data were processed

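The authors normalized the Affymetrix scans by RMA, per the labels' processing notes, without a stated version, and deposited linear intensities. Log2 was taken here with nothing added. Of 54675 probe sets, 62 controls were left out. limma 3.58.1 in R 4.3.3 used all 12 arrays, a mean for each group and 8 residual degrees of freedom, with eBayes moderation and two-sided tests, and was tested on simulated data. Probe sets were named from the platform annotation: 41091 had 1 symbol, 1801 several and 11721 none. Promoter windows came from RefSeq. The members and lists were chosen with earlier results of these data known. Of each list, up to 4 called genes with the smallest adjusted p for PLS-123 against vehicle, and up to 2 in the other comparisons with vehicle, were named, and for the 4 members with the widest range the 3 genes of highest correlation. The other settings tried were an offset of 16 before log2, quantile normalization, a block for the sample letter, a trend with intensity, centring on 100 control probe sets, limma on pairs of groups, the methods' t-test, dim probe sets left out, 1 probe set per gene, the mean over the probe sets of a gene, the ACTB covariate and each array left out in turn. The number of arrays limits the precision.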

Additional observations from a re-analysis of the deposited data

How the results depend on the processing

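Here the second CCNE2 probe set, 211814_s_at, was counted beside the brightest probe sets of the 9 genes in the 6 comparisons. Of these 60 values, 20 passed. Recomputed 1356 times under the alternatives, 1323 kept their side of the threshold and any called direction, 12 no longer passed, 19 newly passed and 2 reversed. A further 58 changed sign without passing either way. The reversals were CCNE2 with the mean over its probe sets, at -0.49 for PLS-123 against vehicle and -0.44 against 1 μM ibrutinib (limma adjusted p = 0.0064 and 0.014), and by construction this mean takes in 211814_s_at. With this mean the count of lower genes was 5 in both comparisons, beside 2765 and 2322 of all 19775 genes. The count of higher genes was 0 under the methods' t-test for PLS-123 and for 10 μM ibrutinib against 1 μM ibrutinib. Over all probe sets this t-test gave 731 and 838 higher, where limma gave 2502 and 2304. For PLS-123 against 10 μM ibrutinib, the count of lower genes was 1 with an intensity trend, 3 with an offset of 16, 1 with dim probe sets left out and 1 with 1 probe set per gene, and the count of higher genes was 1 with the trend. Calls also rose over all probe sets, from 72 lower and 28 higher to 1142 and 273 with the trend. They were 1224 and 197 with the offset and 832 and 150 with dim probe sets left out. With 1 probe set per gene, 121 genes were lower and 33 higher. Among the 9 genes the count of lower genes in this comparison ran from 0 to 1 with arrays left out in turn. Without array A of 1 μM ibrutinib CCND3 passed (limma adjusted p = 0.029), beside 144 lower and 68 higher of all probe sets. The cause was not tested.

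CCNE2 211814_s_at for 10 μM against 1 μM ibrutinib stopped passing without array A or B of 1 μM ibrutinib or array A or C of 10 μM ibrutinib (adjusted p = 0.059, 0.051, 0.065 and 0.082), under limma on the 2 groups alone (0.059) and under the methods' t-test (0.28), and for 10 μM ibrutinib against vehicle under the methods' t-test (0.14). The other called values of CCND3, CDK6, CCNE1, CDKN1B and CCNE2 211814_s_at passed with every array left out in turn. CCNE1 for 10 μM against 1 μM ibrutinib did not pass with the mean over probe sets or the methods' t-test (adjusted p = 0.10 and 0.12). Residuals of the 18 pairs of arrays with 1 letter had correlations from -0.21 to 0.15. Pairs of unlike letters were not set beside them, so these values cannot tell whether the letters pair the samples. With the letter as a replicate block, 3 genes were lower and 1 higher for PLS-123 against vehicle, and no call on a member changed. Of 108 pathway list counts recomputed, 83 stayed within 1.5 times. Over all probe sets, PLS-123 against 1 μM ibrutinib gave 4333 lower and 2502 higher, 3447 and 3052 after quantile normalization, and 3142 and 2994 when centred on the control probe sets.

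The arrays read messages, not protein or phosphorylation, in 1 line at 1 time. CCND1, CCND2 and the second probe sets of CCND3 and CCNE1 lay in the dim range. With 3 arrays a group, a difference that did not pass is not shown to be absent.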
